A study of Mus musculus with 2 samples.

Results

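Terminal natural killer (NK) cells were followed in single-cell transcriptomes of mouse spleen. They were defined by transcripts of Itgam (the integrin chain CD11b) and of Klrg1 or Cx3cr1, with no transcript of Cd27. The 2474 cells that met this rule comprised 1778 of the control library and 696 of the dietary restriction (DR) library, out of 11989 cell barcodes in all and 9470 barcodes gated as NK cells. A barcode was kept if it held at least 500 genes and at most 10% of its transcripts from the mitochondrial genome. It was gated as an NK cell if it held a transcript of the NK receptors Ncr1 or Klrb1c, none of the T, B and myeloid genes Cd3e, Cd79a, Ms4a1 and Csf1r, and at most 1 of Tmem176a and Tmem176b together. Transcripts were counted as unique molecular identifiers (UMIs), each standing for 1 captured RNA molecule. Because Itgam, Cd27, Klrg1 and Cx3cr1 chose the cells, their values are given as a description only.

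The study set splenic NK cells of normally fed mice beside those of DR mice, with Eomes named in its title, using flow cytometry and droplet sequencing with 3′ end capture. Each group had a single library, and the labels state neither the number or pooling of mice, their strain, age or sex, the markers of the sort, nor how food was restricted. Differences between the groups therefore have no replicate check and were not tested. All intervals are 95% intervals for counting error only, since cells of a library are not replicates. The control library held 5702 barcodes and 44526828 UMIs, and the DR library 6287 barcodes and 42134212 UMIs. Terminal cells were deeper in the control library, with a median of 6817.5 UMIs against 5100.5, and had a lower median mitochondrial share, 1.54% against 2.30%. The libraries had 13 barcodes in common, and 0 of them were members in both.

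Mouse NK cells mature along a path on which they lose the costimulatory receptor CD27 and gain CD11b. The inhibitory lectin receptor KLRG1 and the fractalkine receptor CX3CR1 appear late on that path. Late cells are rich in granzymes and perforin and divide little, and the transcription factors T-bet (Tbx21) and ZEB2 are needed to reach the last stage.

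Terminal cells were 36.3% (35.0 to 37.7) of gated NK cells in the control library and 15.2% (14.2 to 16.3) in the DR library. Since the rule asks whether a transcript was seen, the share depends on depth, so every NK cell was also thinned at random to 3000 UMIs before gating. Thinned, the shares were 24.2% of 4623 control cells and 10.5% of 4363 DR cells, after 271 control and 213 DR cells that were too shallow had been left out. The shares differed in the same direction at equal depth. The other NK cells were Itgam-only cells without Klrg1 and Cx3cr1 (516 control and 865 DR cells), Itgam+ Cd27+ cells (1125 and 999), Cd27-only cells (732 and 985) and cells with neither Itgam nor Cd27 (743 and 1031).

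**Figure D1:**
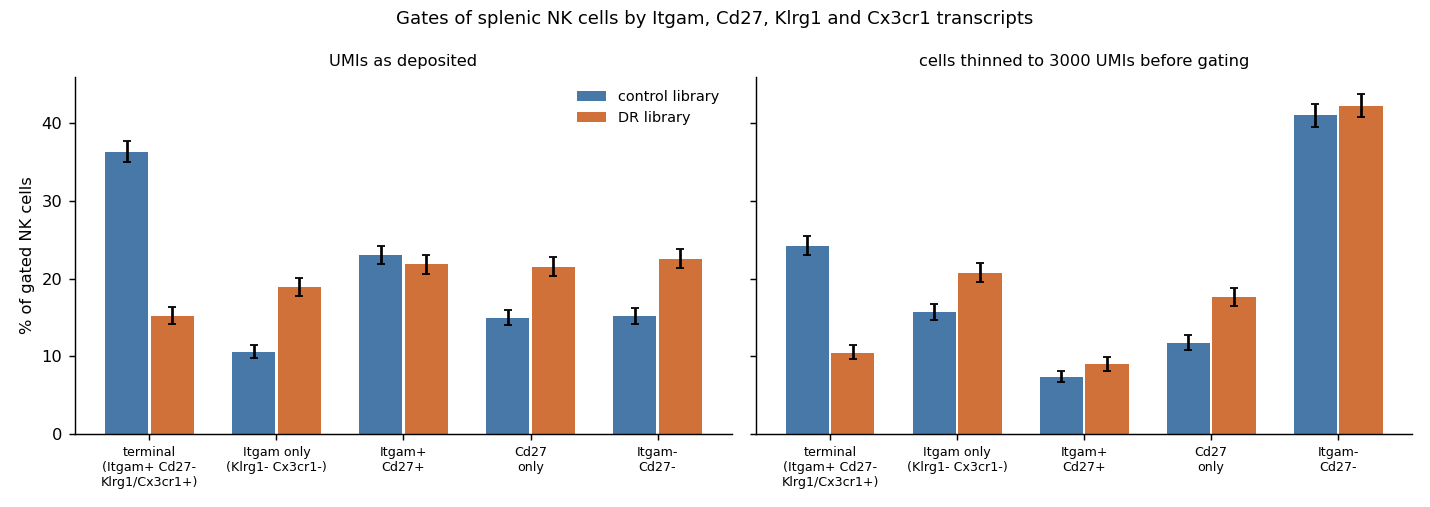
Share of gated NK cells in each gate (y axis, %), for the control and the DR library, with UMIs as deposited (left) and after thinning each cell to 3000 UMIs (right). Bars are shares of cells and error bars 95% Clopper-Pearson intervals. The terminal bar is the higher one in the control library in both panels, at 36.3% against 15.2% and at 24.2% against 10.5%.

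Among Itgam+ Cd27- cells alone, terminal cells were 77.5% (75.7 to 79.2) of 2294 in the control library and 44.6% (42.1 to 47.1) of 1561 in the DR library. At 3000 UMIs per cell these shares were 60.7% (58.4 to 62.9) and 33.5% (31.0 to 36.1). The terminal gate held a smaller part of the late Itgam+ Cd27- compartment in the DR library. With 1 library per group, the diet, the animals, the sort and the library cannot be told apart.

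The members also differed between the libraries in which receptor genes they held. Both Klrg1 and Cx3cr1 were seen in 845 control members (47.5%, 45.2 to 49.9) and in 130 DR members (18.7%, 15.8 to 21.8). Klrg1 without Cx3cr1 was seen in 794 control members (44.7%) and in 517 DR members (74.3%). Cx3cr1 without Klrg1 was the least frequent kind in either library, with 139 and 49 members. Any Cx3cr1 marked 55.3% of control and 25.7% of DR members, and 51.3% and 22.8% after thinning. The summed level of Cx3cr1 in the members was 255 UMIs per 1000000 UMIs (CPM; 247 to 264) in the control and 88.0 CPM (78.9 to 97.8) in the DR library. That of Klrg1 was 422 CPM (411 to 433) and 378 CPM (359 to 397). Klrg1 lies on chromosome 6 (122270596 to 122282882) and Cx3cr1 on chromosome 9 (119901616 to 120069879) of the mouse build GRCm38, both on the minus strand.

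Many members sat close to the limit of the rule, more so in the DR library. A single UMI of Klrg1 and Cx3cr1 together admitted 315 control members (17.7%) and 277 DR members (39.8%), and 4 or more UMIs were held by 53.5% and 23.7%. A single UMI of Itgam admitted 517 control and 302 DR members. Just outside, 441 control and 198 DR cells met every criterion but for 1 UMI of Cd27, and 365 control and 350 DR cells did so but for an absent Itgam. In B-like cells of the same libraries (93 and 399 cells, median 8194 and 6611 UMIs), which held Cd79a and Ms4a1 but neither Ncr1 nor Klrb1c and should lack these receptors, Klrg1 was seen in 1.08% and 0.752%, Cx3cr1 in 0 cells and Itgam in 3 and 5 cells.

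The label was checked with the 3 marker genes that the rule did not use. These were Zeb2, which encodes the transcription factor ZEB2, Cma1, which encodes a chymase of the serine protease family, and Gzmb, which encodes the cytotoxic protease granzyme B. In both libraries, each had its highest level of the 5 gates in terminal cells and its lowest in Cd27-only cells. Zeb2 stood at 975 and 831 CPM in control and DR terminal cells, at 719 and 575 CPM in Itgam-only cells and at 279 and 206 CPM in Cd27-only cells. Cma1 stood at 564 and 492 CPM in terminal cells, at 306 and 357 CPM in Itgam-only cells and at 79.1 and 98.9 CPM in Cd27-only cells. Gzmb stood at 1206 and 976 CPM, at 747 and 721 CPM and at 258 and 286 CPM in the same order. The markers therefore followed the label in each library. All 3 are on a list of terminal maturation genes drawn up with earlier results of these data known, so this is no independent check.

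Counts of cells gave the same order. At 3000 UMIs per cell, transcripts of all 3 genes were present together in 58.6% (55.6 to 61.5) of control and 49.3% (44.7 to 54.0) of DR terminal cells. The share was 36.3% and 34.1% in Itgam-only cells and 12.9% and 9.13% in Cd27-only cells. Before thinning, Zeb2 was seen in 97.9% and 93.1% of control and DR members and in 36.6% and 37.8% of B-like cells, so that its detection does not set NK cells apart. Cma1 was seen in 86.0% and 79.6% of members and 3.23% and 1.75% of B-like cells, and Gzmb in 94.8% and 90.7% and 3.23% and 3.76%.

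**Figure D2:**
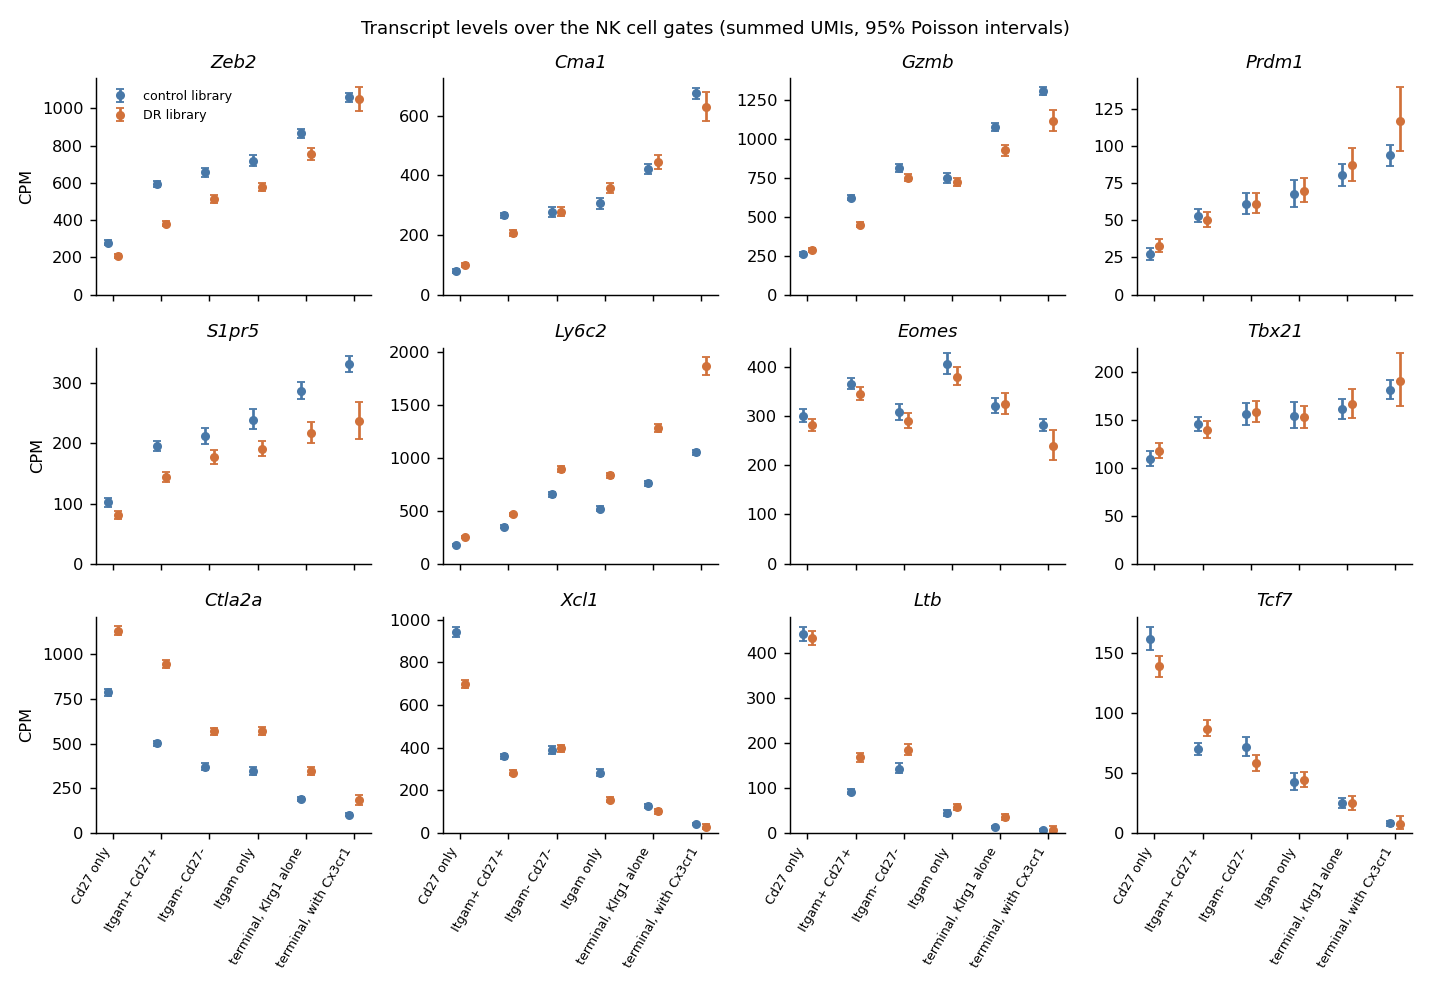
Summed transcript level (y axis, CPM, each panel with its own scale from 0) of 12 genes over the NK cell gates (x axis), with the terminal gate divided into members with Klrg1 alone and members with Cx3cr1. Points are the 2 libraries and bars 95% Poisson intervals. Zeb2, Cma1, Gzmb and Ly6c2 are highest in members with Cx3cr1, and Ctla2a, Xcl1, Ltb and Tcf7 are highest in Cd27-only cells.

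Gzmb lies on chromosome 14 (56258838 to 56262260), Cma1 on chromosome 14 (55941451 to 55944675), Gzma, which encodes granzyme A, on chromosome 13 (113093825 to 113100981) and Zeb2 on chromosome 2 (44983632 to 45117395) of GRCm38, all on the minus strand. Promoters are shown for the 3 protease genes Gzmb, Gzma and Cma1, because these effector genes were among the 10 that ranked highest in terminal against Cd27-only cells. Each is the 250 bases before the transcription start in RefSeq (GRCm38.p6), read 5′ to 3′ on the gene's minus strand, at chr14:56262335-56262584 for Gzmb, chr13:113100982-113101231 for Gzma and chr14:55944676-55944925 for Cma1. Capitals mark matches on either strand to a Runx motif (TGTGGT), an E-box that ZEB proteins can bind (CAGGTG), a T-box motif (GGTGTGA) or an AP-1 motif (TGACTCA).
Gzmb: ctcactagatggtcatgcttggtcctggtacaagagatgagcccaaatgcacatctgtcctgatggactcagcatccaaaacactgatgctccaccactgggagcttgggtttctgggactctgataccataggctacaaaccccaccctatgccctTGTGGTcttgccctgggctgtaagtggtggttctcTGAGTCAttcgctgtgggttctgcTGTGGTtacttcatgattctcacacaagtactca
Gzma: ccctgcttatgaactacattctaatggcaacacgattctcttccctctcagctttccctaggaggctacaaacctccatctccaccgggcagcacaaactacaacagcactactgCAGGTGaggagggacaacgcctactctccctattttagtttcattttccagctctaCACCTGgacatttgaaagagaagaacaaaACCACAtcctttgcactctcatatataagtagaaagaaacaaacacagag
Cma1: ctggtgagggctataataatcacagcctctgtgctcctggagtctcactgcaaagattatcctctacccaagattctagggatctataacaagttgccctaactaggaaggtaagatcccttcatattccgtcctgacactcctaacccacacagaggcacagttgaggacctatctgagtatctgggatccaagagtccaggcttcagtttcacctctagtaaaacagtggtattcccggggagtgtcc
The Gzmb window held 2 matches to the Runx motif and 1 to the AP-1 motif. The Gzma window held 1 to the Runx motif and 2 to the E-box, and the Cma1 window held 0. Over the 10 ranked genes, all of which had a promoter entry, the Runx motif was found in 3, the E-box in 2, the AP-1 motif in 2 and the T-box motif in 0. Zeb2 and Ly6c2 have several start sites, and a gene counted if any of its windows matched. Of 32851 mouse promoters of the same length, 14.0% held the Runx motif, 17.2% the E-box, 4.46% the AP-1 motif and 3.33% the T-box motif, a share per promoter and not per gene. The T-box letters begin with the last 4 letters of the E-box, so that a stretch can match both. A match is a description of the letters, and no match says only that these letters are not in this window.

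Against Cd27-only cells, terminal cells had more transcripts of Gzmb, Gzma, Prf1, Zeb2 and S1pr5 and fewer of Ltb, Emb, Xcl1 and Tcf7, in both libraries. Description was limited to genes averaging 50 CPM or more, and a gene was called by size alone, when it was at least 25% higher or 20% lower. Of 2965 genes, 382 (12.9%) were called higher and 208 (7.02%) lower in terminal cells in both libraries, and the median log2 ratio of all genes was 0.09 in the control and 0.10 in the DR library. With median-of-ratios scaling, which sets these medians to 0, the split turned round, to 8.20% higher and 10.1% lower. In a list of 12 terminal maturation genes outside the rule, 12 were called higher and 0 lower, with medians of 1.57 and 1.37. The lists were drawn up with earlier results of these data known, so this count is no independent evidence of their direction. Ltb, Emb, Tcf7, Cxcr3, Gpr18 and Il7r reached a mean of 50 CPM only through Cd27-only cells, and Kcnj8 and Prdm1 only through terminal cells. In the control library Cd160 and Nrgn also reached it only through Cd27-only cells, and Serpinb9b only through terminal cells. Such genes had to differ.

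Ly6c2, which encodes a Ly6C surface protein, ranked first by the smaller ratio of the libraries, at a log2 of 2.41 (2.32 to 2.50) in the control and 2.51 (2.43 to 2.59) in the DR library. Its level stood at 925 against 174 CPM in the control and at 1431 against 252 CPM in the DR library. Cma1 ranked next, at 2.84 (2.71 to 2.96) and 2.31 (2.19 to 2.44). Kcnj8, a subunit of an inward rectifier potassium channel, stood at 166 against 24.5 CPM and at 175 against 41.5 CPM. Ly6c2 counts may include reads of the near-identical Ly6c1, and Serpinb9b and Klra9, also among the 10, likewise have close paralogs.

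Transcription factor genes of late NK cells were among those called higher. Zeb2 had log2 ratios of 1.81 (1.74 to 1.88) and 2.01. Prdm1, which encodes Blimp-1, had ratios of 1.70 (1.47 to 1.93) and 1.53 (1.29 to 1.77), and Tbx21 had 0.66 (0.54 to 0.78) and 0.56 (0.41 to 0.70). Eomes, the other T-box factor of NK cells, was within the limit at -0.01 (-0.09 to 0.06) and 0.11 (0.01 to 0.21). Of 18 listed transcription factors, 9 were called higher, Irf8, Klf2, Runx1 and Ikzf3 among them, and 2 lower. The lower ones were Foxo1 and Tcf7, which encodes the early lymphocyte factor TCF-1 and had ratios of -3.41 (-3.64 to -3.19) and -2.79 (-3.14 to -2.46).

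Granule genes were called in 1 direction where they were called. Of 13 described, 8 were higher and 0 lower, with median log2 ratios of 0.72 and 0.61. Gzmb was higher at 2.23 (2.16 to 2.30) and 1.77 (1.69 to 1.85). Gzma was higher, at 18669 against 5708 CPM in the control and at 18000.4 against 6365 CPM in the DR library. Prf1, which encodes the pore-forming protein perforin, was higher at 1.52 (1.47 to 1.57) and 1.27 (1.21 to 1.33).

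Of 17 homing and adhesion genes outside the rule, 9 were called higher and 4 lower. The higher ones included S1pr5, the sphingosine-1-phosphate receptor of NK cell egress, at 1.62 and 1.47 (1.32 to 1.62), and the integrin genes Itga4, Itgb7, Itgb1, Itgb2 and Itga2. The lower ones included the chemokine receptor genes Cxcr3 and Ccr2, and Cd44, the hyaluronan receptor gene. Of 12 annexin, S100 and galectin genes, 9 were called higher and 0 lower. Of 6 cytokine and chemokine genes, 1 was called higher, the chemokine gene Ccl5, and 3 lower, Ccl4, Ltb and Xcl1. Ccl5 stood at 22109 against 13268 CPM in the control and at 21632 against 14298 CPM in the DR library.

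Ltb, which encodes lymphotoxin beta, led the lower side and stood at 9.26 against 442 CPM in the control and at 27.5 against 433 CPM in the DR library. Emb, which encodes embigin, stood at 8.11 against 203 CPM and at 24.1 against 246 CPM. Xcl1, which encodes the chemokine lymphotactin, stood at 78.7 against 944 CPM and at 82.1 against 699.6 CPM. Tcf7, Cd160, Cxcr3, Cd7, Ctla2a, Gpr18 and Nrgn made up the rest of the 10. Ribosomal protein genes made up 16.8% of control and 18.5% of DR terminal UMIs, against 23.7% and 25.6% in Cd27-only cells, which were also deeper, with medians of 8898 and 6933 UMIs. The part of these differences in the ratios was not tested.

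Itgam-only cells, which differ in the rule only by the absence of Klrg1 and Cx3cr1 transcripts, gave fewer calls. Of 3048 genes, 29 (0.951%) were called higher and 29 (0.951%) lower in terminal cells in both libraries, with a median log2 ratio of 0.00 in each. Of the 12 terminal maturation genes, 5 were called higher, namely Cma1, Gzmb, Ly6c2, Prdm1 and Zeb2, and 0 lower. Of 6 immature genes, 3 were called lower, namely Cd7, Ctla2a and Xcl1, and 0 higher. An absent transcript does not show that a cell lacks the receptor, and cells near the limit of detection fall on either side.

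Timp2, which encodes an inhibitor of metalloproteinases, ranked first among the genes higher in terminal than in Itgam-only cells, at a log2 ratio of 0.98 (0.76 to 1.22) and 1.02 (0.75 to 1.30). In the DR library Timp2 reached a mean of 50 CPM only through terminal cells, so that it had to be higher there. S100a4, which encodes a calcium-binding S100 protein, stood at 146 against 71.0 CPM in the control and at 153 against 79.1 CPM in the DR library. Stmn1, which encodes the microtubule destabilizer stathmin, stood at 160.3 against 82.9 CPM and at 134 against 77.6 CPM. The rest of the 10 were Ly6c2, Serpinb9b, Klra9, Kcnj8, Gpc1, S100a6 and Rac3. The smallest log2 ratios of the 10 were 0.59 in the control and 0.47 in the DR library, both for Rac3. Of 7 described cell cycle genes, 2 were called higher, namely Stmn1 and Tuba1b, and 0 lower. The 20 listed cell cycle genes summed to 3989 CPM in control and 3825 CPM in DR terminal cells. The sums were 3519 and 3514 CPM in Itgam-only, 4337 and 3174 CPM in Itgam+ Cd27+ and 3602 and 2826 CPM in Cd27-only cells. Cell cycle transcripts were thus not lowest in terminal cells.

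Among the lower genes, Xcl1 had log2 ratios of -1.84 (-1.97 to -1.71) and -0.91 (-1.10 to -0.72). Ctla2a, which encodes an inhibitor of cysteine proteases, had ratios of -1.31 (-1.42 to -1.20) and -0.90. Ccr2, a receptor for the chemokine CCL2, had ratios of -1.22 (-1.33 to -1.11) and -0.83 (-0.97 to -0.70). Socs1, an inhibitor of cytokine signalling, was also among the 10, with Cmtm7, Mef2c, Serpina3g, Tapbpl, Nrarp and Pglyrp2. Cmtm7 and Pglyrp2 reached a mean of 50 CPM only through Itgam-only cells, so that they had to be lower in terminal cells. The same held for Socs1 and Mef2c in the control library. The T-box factors differed from each other here. Eomes was called lower in terminal cells, at -0.45 (-0.53 to -0.36) and -0.33 (-0.44 to -0.22), and Tbx21 was within the limit, at 0.16 (0.02 to 0.30) and 0.18 (0.02 to 0.33).

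A few chosen genes were also read by the number of receptor transcripts. Itgam+ Cd27- cells thinned to 3000 UMIs were divided by their UMIs of Klrg1 plus Cx3cr1 into cells with 0, 1, 2 and 3 or more. These were 725, 389, 253 and 478 cells in the control library and 904, 255, 115 and 86 in the DR library, and the cells with 0 are not members. Zeb2 stood at 766, 964, 1037 and 1155 CPM in the control library and at 586, 757, 742 and 1167 CPM in the DR library. Ly6c2 stood at 570.1, 754, 1079 and 1324 CPM in the control and at 858, 1442, 1481 and 1899 CPM in the DR library. Both genes were highest in cells with 3 or more receptor UMIs, where the Zeb2 intervals of the libraries overlapped (1099.9 to 1212 and 1039 to 1306 CPM).

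Eomes went the other way, at 359, 313, 264 and 247 CPM in the control and 365, 350.3, 310.1 and 198 CPM in the DR library. Ctla2a stood at 314, 209.9, 126 and 89.3 CPM in the control and at 556, 354, 301 and 159 CPM in the DR library. At every step the Ctla2a and Ly6c2 levels were higher in the DR library, with intervals that did not overlap. Tbx21 had overlapping intervals between neighbouring steps, at 148, 175, 181 and 185 CPM in the control and 163, 187, 165 and 178 CPM in the DR library. Gzmb stood at 857, 1040.3, 1303 and 1335 CPM in the control and at 708, 851, 1058 and 992 CPM in the DR library.

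**Figure D3:**
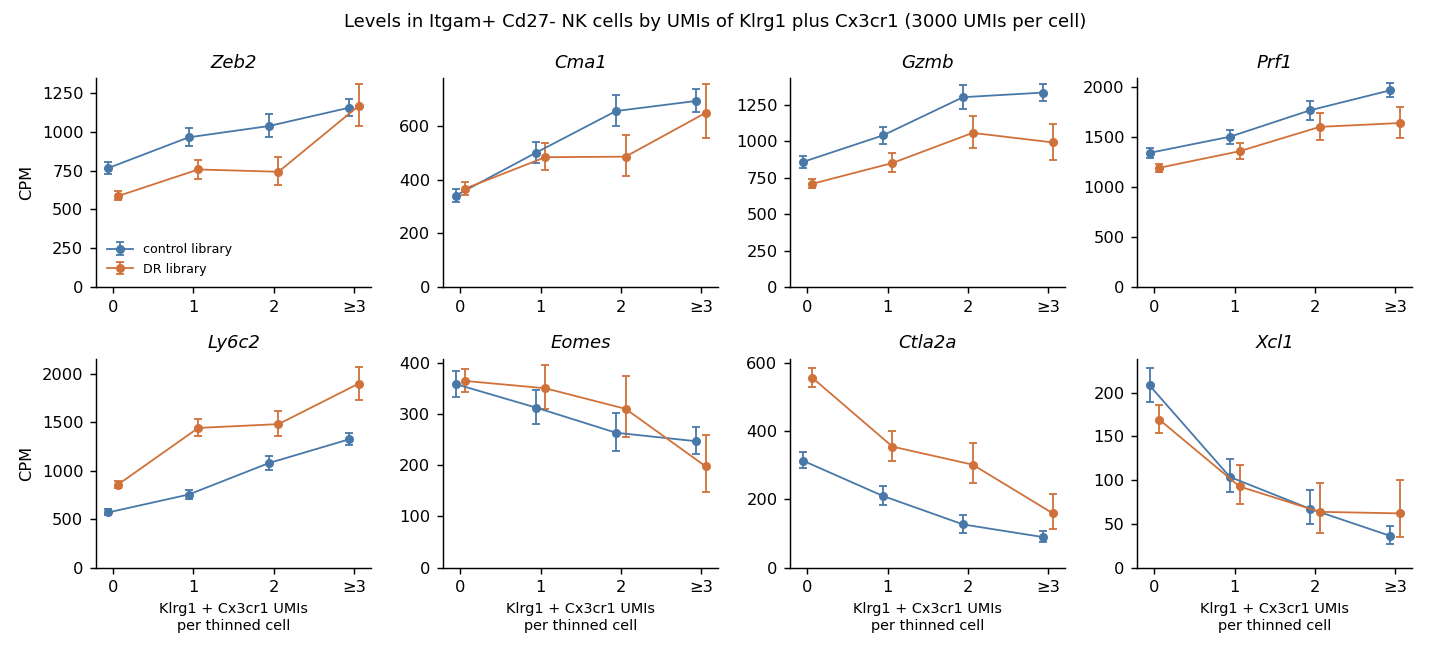
Level (y axis, CPM, from 0) of 8 genes in Itgam+ Cd27- NK cells thinned to 3000 UMIs, by the number of Klrg1 plus Cx3cr1 UMIs in the cell (x axis), for the 2 libraries with 95% Poisson intervals. Zeb2 and Ly6c2 are highest at 3 or more UMIs and Eomes, Ctla2a and Xcl1 at 0, and the DR library lies above the control library at every step for Ly6c2 and Ctla2a.

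Within the members, those with Cx3cr1 were compared with those holding Klrg1 alone. Of 3019 genes, 18 (0.596%) were called higher and 17 (0.563%) lower in Cx3cr1 members in both libraries. Cma1 stood at 675 against 419.6 CPM in the control and at 630.2 against 444 CPM in the DR library. Zeb2 was within the limit in the control library, at a log2 ratio of 0.29 (0.24 to 0.34), and past it in the DR library, at 0.47 (0.37 to 0.58). The histone gene Hist1h2ap and the microtubule genes Stmn1 and Tuba1b were also among the 10 highest, with Snx10, Timp2, Ly6c2, Klrb1b, Dock5 and Sgk1. Stmn1 stood at 204 against 103 CPM in the control and at 199 against 112 CPM in the DR library. Hist1h2ap belongs to a family of near-identical histone genes.

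A chemokine gene and a chemokine receptor gene led the lower side. Xcl1 stood at 41.0 against 128 CPM in the control and at 28.9 against 101 CPM in the DR library. Ccr2 stood at 86.7 against 201 CPM and at 84.8 against 204 CPM. Members with Cx3cr1 had less of these transcripts and more Cma1 than members with Klrg1 alone, in both libraries. Ctla2a, Cd7, Serpina3g, Ly6e, Klra1, Shisa5 and Tnfrsf9 were also among the 10 lowest. Xcl1 reached a mean of 50 CPM only through members with Klrg1 alone, as did Tnfrsf9 in the DR library. Hist1h2ap and Dock5 reached it only through members with Cx3cr1, as did Sgk1 in the DR library. Such genes had to differ. Depth was near equal within a library, with medians of 6872.5 and 6714 UMIs in the control and 5151 and 5076 in the DR library.

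The libraries were then compared within the terminal cells. Of 3185 genes, 91 (2.86%) were called higher and 293 (9.20%) lower in the DR library, and the median log2 ratio of DR over control was -0.07. This split depended on scaling. With median-of-ratios scaling, which sets the median of all genes to 0, 5.05% were higher and 4.62% lower. The counts in each list below are to be read beside the 2.86% and 9.20% of all genes.

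The T-box factors stood at like levels in the libraries. Tbx21 stood at 173 and 173 CPM, a log2 ratio of 0.00 (-0.12 to 0.13), and Eomes at 298 and 303 CPM, a ratio of 0.02 (-0.07 to 0.12). Within members with Cx3cr1 the Eomes ratio was -0.23 (-0.43 to -0.04), and within members with Klrg1 alone it was 0.02 (-0.10 to 0.13). Zeb2 was lower in the DR library within the limit, at -0.23 (-0.29 to -0.17), and Cma1 at -0.20 (-0.27 to -0.13). Gzmb, at -0.31 (-0.36 to -0.25), was just inside the log2 limit of 0.32. Members with Cx3cr1 had ratios of -0.01 (-0.11 to 0.08) for Zeb2 and -0.10 (-0.22 to 0.02) for Cma1, and members with Klrg1 alone had -0.20 (-0.27 to -0.12) and 0.08 (-0.02 to 0.18). The Zeb2 and Cma1 ratios within either kind of member were nearer 0 than over all members. The intervals overlapped those of all members for Zeb2 in members with Klrg1 alone and for Cma1 in members with Cx3cr1. The part of the member mix in these ratios was not tested.

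Of the 12 terminal maturation genes outside the rule, 1 was called higher and 1 lower, with a median of -0.21. With the 3 rule genes added the median was -0.20, and it was -0.093 when both kinds of member were weighted equally. The higher one was Ly6c2, at 925 CPM (909 to 942) in the control and 1431 CPM (1394 to 1469) in the DR library. Its log2 ratio was 0.63 (0.58 to 0.68) over all members, 0.83 (0.75 to 0.90) in members with Cx3cr1 and 0.75 (0.69 to 0.82) in members with Klrg1 alone. The lower one was S1pr5, at 313 CPM (303 to 322) and 223 CPM (208 to 238), a ratio of -0.49 (-0.60 to -0.38). The S1pr5 ratio was -0.49 (-0.68 to -0.29) in members with Cx3cr1 and -0.40 (-0.53 to -0.26) in members with Klrg1 alone. Ly6c2 and S1pr5, both higher in terminal than in Cd27-only cells, differed between the libraries in opposite directions.

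Ly6e and Ctla2a had the largest ratios. Ly6e, a small membrane-anchored protein of the LY6 family encoded on chromosome 15 (74955051 to 74959905), stood at 175 CPM (168 to 182) in the control and 388 CPM (369 to 408) in the DR library, 2.22-fold higher. Its log2 ratio was 1.15 (1.05 to 1.24) in terminal cells, 0.53 (0.42 to 0.63) in Itgam-only cells, 0.69 (0.63 to 0.75) in Itgam+ Cd27+ cells, 0.57 (0.49 to 0.65) in cells with neither gene and 0.21 (0.15 to 0.26) in Cd27-only cells. The terminal interval overlapped none of the other 4. Within the members the ratio was 1.11 (0.92 to 1.30) for those with Cx3cr1 and 0.89 (0.78 to 1.01) for those with Klrg1 alone, both below that of all members. The ratio was largest in the gate where the level was lowest, since Cd27-only cells held 783 CPM of Ly6e in the control and 903 CPM in the DR library.

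Ctla2a, on chromosome 13 (60934155 to 60936625), stood at 139.7 CPM (133 to 146) and 305 CPM (288 to 323), 2.18-fold higher in the DR library. Its log2 ratio was 1.12 (1.02 to 1.23) in terminal cells, 0.71 (0.61 to 0.82) in Itgam-only cells, 0.91 (0.86 to 0.96) in Itgam+ Cd27+ cells, 0.62 (0.53 to 0.70) in cells with neither gene and 0.53 (0.48 to 0.58) in Cd27-only cells. It was 0.84 (0.60 to 1.07) in members with Cx3cr1 and 0.88 (0.76 to 1.01) in members with Klrg1 alone. Khdc1a stood at 60.1 and 131 CPM, a ratio of 1.12 (0.96 to 1.28), and at a ratio of 1.15 (0.92 to 1.38) in Itgam-only cells. Both Ctla2a and Khdc1a have close paralogs with which reads may be shared.

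The genes of 2 RNA-binding proteins known to be induced by cold followed. Rbm3 stood at 433 CPM (422 to 444) in the control and 736 CPM (709 to 763) in the DR library, a log2 ratio of 0.77 (0.70 to 0.83). Cirbp stood at 169 CPM (162 to 176) and 292 CPM (276 to 310.0), a ratio of 0.79 (0.69 to 0.90). Of 9 listed cold-inducible and heat shock genes, 2, these same ones, were called higher and 0 lower, with a median of -0.11. The chaperone genes Hspa5 and Hsp90ab1 lay within the limit, at -0.31 (-0.41 to -0.21) and -0.26 (-0.32 to -0.20). St13, which encodes a cochaperone of HSP70 and was not on the list, was called lower at -0.59 (-0.76 to -0.43). In Cd27-only cells the ratios of Rbm3 and Cirbp were 0.50 and 0.91.

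Receptor genes of the NK gene complex on chromosome 6 differed in both directions. Klra8, which encodes the activating receptor Ly49H, stood at 933 CPM (916 to 949) in the control and 549 CPM (526 to 573) in the DR library, a log2 ratio of -0.76 (-0.83 to -0.70). The Klra8 ratio was -0.80 in Itgam-only, -0.69 in Itgam+ Cd27+ and -0.55 in Cd27-only cells, and -0.76 in cells with neither gene. Klra7, a further Ly49 gene, stood at 499 and 379 CPM, a ratio of -0.40 (-0.48 to -0.31). Of 6 described Ly49 genes, 0 were called higher and 2, the genes just given, lower, with a median of -0.20. Ly49 genes are near-identical in part, and the counting may divide their reads.

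The NKG2 and NKR-P1 genes went the other way where they were called. Of 10, 3 were higher and 0 lower, with a median of 0.11. Klrb1b, which encodes an inhibitory NKR-P1 receptor and has close paralogs, stood at 128 CPM (122 to 134) and 201 CPM (187 to 216), a log2 ratio of 0.65 (0.53 to 0.78). Klrc1, which encodes the inhibitory receptor NKG2A, stood at 226 and 309 CPM, a ratio of 0.45 (0.36 to 0.55). Klrb1f stood at 209.6 and 282 CPM, a ratio of 0.43 (0.33 to 0.53), and at 0.23 (0.10 to 0.35) in members with Klrg1 alone. The Klrb1b ratio was 1.58 (1.35 to 1.81) in Itgam-only cells, larger than in terminal cells with intervals that did not overlap.

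Of 18 activating receptor and adaptor genes, 0 were called higher and 2 lower, near the 2.86% and 9.20% of all genes. Slamf7, which encodes a receptor of the SLAM family, stood at 218 CPM (210.4 to 227) and 135 CPM (123 to 147), a log2 ratio of -0.70 (-0.83 to -0.56). Cd247, which encodes the signalling chain CD3 zeta, stood at 161 and 123 CPM, a ratio of -0.39 (-0.53 to -0.24). The Slamf7 ratio was -0.93 (-1.11 to -0.76) in Itgam-only cells and -0.52 in Cd27-only cells. Of 16 granule genes, 0 were called in either direction, with a median of -0.01. Prf1 stood at 1648 and 1369 CPM, a ratio of -0.27 (-0.31 to -0.22), and Gzma at 18669 and 18000.4 CPM, a ratio of -0.05 (-0.06 to -0.04).

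Of 14 cytokine receptor and STAT5 pathway genes, 1 was called higher and 2 lower, with a median log2 ratio of -0.09. Over all genes, 2.86% were higher and 9.20% lower, with a median of -0.07. Il18r1, which encodes a chain of the interleukin-18 receptor, stood at 199 CPM (192 to 207) and 298 CPM (281 to 316), a log2 ratio of 0.58 (0.48 to 0.68). The Il18r1 ratio was 0.68 in Itgam-only, 0.69 in Itgam+ Cd27+ and 0.70 in Cd27-only cells, and 0.61 in cells with neither gene. Stat3, which encodes a transcription factor downstream of cytokine receptors, was called lower at -0.33 (-0.49 to -0.17), a call that held in 8 of 14 alternative settings. In this and later counts of settings, the limit of 20 CPM leaves the ratio unchanged, so a call had to hold there. Of 7 described type I interferon response genes, 3 were called lower and 0 higher, with a median of -0.30. They included Irf9 at -0.47 (-0.72 to -0.23) and Ifi203 at -0.46 (-0.56 to -0.36).

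Of 5 cytokine and chemokine genes, 2 were called lower, namely Ccl3 at -0.39 (-0.55 to -0.22) and Ccl4 at -0.34 (-0.45 to -0.23), and 0 higher. The call of Ccl4 held in 8 of 14 alternative settings. Ifng, which encodes interferon gamma and had a mean level under 50 CPM, stood at 52.8 CPM (48.9 to 56.9) and 44.9 CPM (38.5 to 52.1), with intervals that overlapped. Xcl1 was within the limit over all members, at 0.06 (-0.12 to 0.24), while its ratio was -0.51 (-1.11 to 0.05) in members with Cx3cr1 and -0.35 (-0.55 to -0.15) in members with Klrg1 alone. Members with Klrg1 alone, in which Xcl1 was higher, were 74.3% of DR and 44.7% of control members. The part of this mix in the ratio was not tested.

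Of 17 homing and adhesion genes outside the rule, 2 were called higher and 2 lower, S1pr5 among the latter. Over all genes, 2.86% were called higher and 9.20% lower. Itga4, which encodes the integrin chain alpha 4, stood at 1403 CPM (1383 to 1424) in the control and 1007 CPM (975 to 1039) in the DR library, a log2 ratio of -0.48 (-0.53 to -0.43). Cd44 stood at 66.2 and 94.7 CPM, a ratio of 0.52 (0.34 to 0.69). Ccr2 was called higher at 0.35 (0.22 to 0.48), yet its ratio was -0.03 (-0.38 to 0.30) in members with Cx3cr1 and 0.02 (-0.12 to 0.17) in members with Klrg1 alone. The Ccr2 ratio was thus near 0 within either kind of member.

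Ccnd2, which encodes cyclin D2, stood at 785 CPM (769.6 to 800.0) and 461 CPM (439.7 to 483), a log2 ratio of -0.77 (-0.84 to -0.70). Its ratio was -0.77 in members with Cx3cr1, -0.76 in members with Klrg1 alone and -0.54 in Cd27-only cells. Of 7 described cell cycle genes, 0 were called in either direction. Glucocorticoid response genes were called both ways, with 2 of 8 higher and 3 lower and a median of -0.01. Tsc22d3, which encodes the glucocorticoid-induced protein GILZ, was higher at 0.58 (0.47 to 0.68). The Tsc22d3 ratio was larger in the other gates, at 0.95 in Itgam-only, 0.71 in Itgam+ Cd27+ and 0.97 in Cd27-only cells. It was 0.65 in cells with neither gene. Sgk1, a glucocorticoid-induced kinase, was lower at -0.66 (-0.89 to -0.44), and at -0.22 (-0.58 to 0.12) in members with Cx3cr1.

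The other ranked genes higher in the DR library were Sla, which encodes the Src-like adaptor SLAP, at 0.81 (0.64 to 0.98), Klhl6 at 0.73 (0.59 to 0.87) and Fam189b at 0.68 (0.52 to 0.84). Sla was within the limit in Itgam-only cells, at 0.17 (-0.02 to 0.36). The other lower ones were Ptms, Car5b, Nab1, Hist1h4d, Limd2, Zfp950 and Rasgrp2, with log2 ratios between -0.82 and -0.57. Zfp950, at 63.1 and 38.2 CPM, reached a mean of 50 CPM only through the control library, so that it had to be lower. Rasgrp2, an activator of the small GTPase RAP1, stood at 217 and 145 CPM. Car5b, a mitochondrial carbonic anhydrase, stood at 95.5 and 54.1 CPM.

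**Figure D4:**
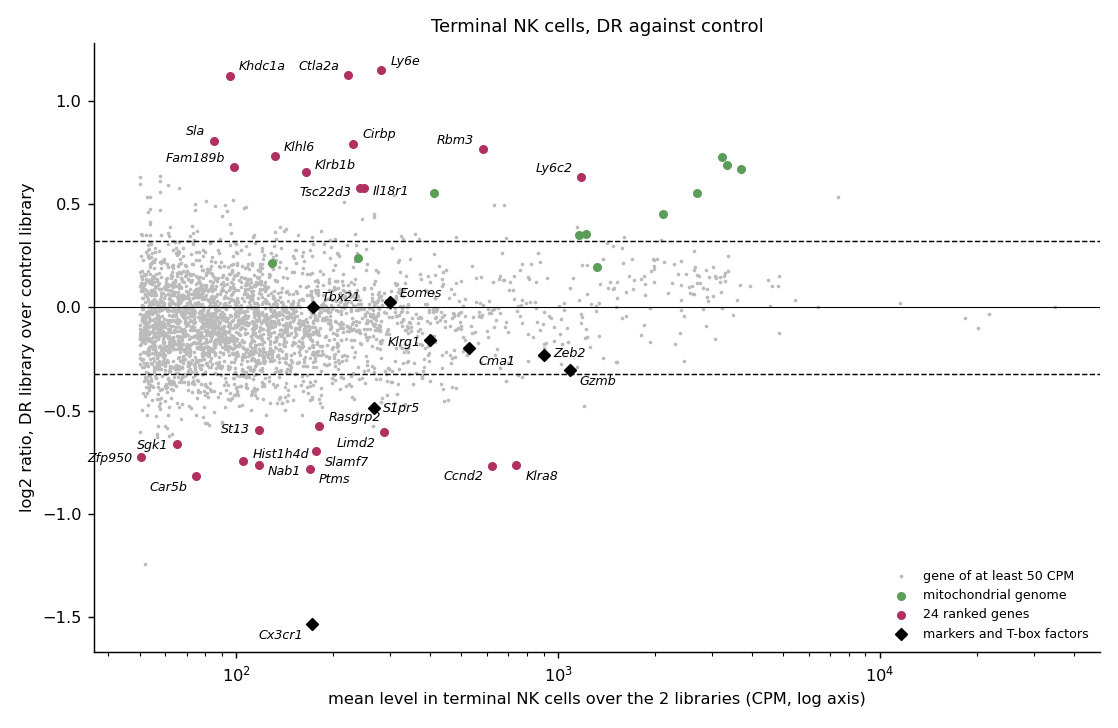
Log2 ratio of the DR over the control library in terminal NK cells (y axis) against the mean level (x axis, CPM, log scale) for 3185 genes of at least 50 CPM, with dashed lines at 25% higher and 20% lower. Red points are the 24 ranked genes, green points genes of the mitochondrial genome and black diamonds the markers and T-box factors. Ly6e and Ctla2a lie highest, at 1.15 and 1.12, and Tbx21 and Eomes lie at 0.00 and 0.02.

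Respiratory chain genes divided by genome. Of 11 described genes of the mitochondrial genome, 8 were called higher and 0 lower in the DR library, with a median log2 ratio of 0.45. The cytochrome oxidase subunit gene mt-Co2 stood at 2420.5 CPM (2394 to 2447) and 4017 CPM (3954 to 4081), a ratio of 0.73 (0.70 to 0.76). Of 33 respiratory chain genes of the nucleus, 0 were called in either direction, with a median of -0.01. The mt-Co2 ratio was 0.77 in Itgam-only cells and 0.71 in Cd27-only cells. Mitochondrial UMIs were 1.59% of control and 2.34% of DR terminal UMIs, a measure that is also used as a sign of cell quality, and its part in the other ratios was not tested. Of 11 glycolysis genes, 2 were called lower, namely Hk1 at -0.39 (-0.62 to -0.15) and Pfkp at -0.38 (-0.52 to -0.24), and 0 higher, with the call of Hk1 held in 10 of 14 alternative settings.

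Genes of nutrient sensing were called both ways. Of 10 FOXO and mTOR genes, 2 were higher and 1 lower, with a median of 0.20. The higher ones were Bcl2l11, which encodes the death-promoting protein BIM, at 0.50 (0.31 to 0.68), and Ddit4, an inhibitor of mTORC1, at 0.50 (0.33 to 0.66). Ddit4 was within the limit in members with Cx3cr1, at 0.17 (-0.18 to 0.50). The lower one was Sesn3, which encodes a stress-induced regulator of mTORC1, at -0.37 (-0.59 to -0.15). Of 5 BCL2 family genes, 1 was called higher, Bcl2l11, and 0 lower. Of 6 immature NK genes, 2 were called higher, namely Ctla2a and Lef1, a TCF family transcription factor gene at 0.58 (0.38 to 0.77), and 0 lower, with a median of 0.21.

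The remaining lists held few calls, to be set beside 2.86% higher and 9.20% lower over all genes. Of 27 actin cytoskeleton genes, 0 were higher and 2 lower, namely Arpc4, an actin nucleation subunit, at -0.35 (-0.45 to -0.24) and Dock8, which encodes a guanine nucleotide exchange factor, at -0.34 (-0.49 to -0.19). These calls held in 10 of 14 and 7 of 14 alternative settings. Of 13 annexin, S100 and galectin genes, 2 were higher, namely Anxa5 at 0.47 (0.26 to 0.68) and Anxa1 at 0.33 (0.21 to 0.44), and 0 lower. The Anxa1 ratio was 0.03 (-0.22 to 0.27) in members with Cx3cr1, and its call held in 9 of 14 alternative settings. Of 17 genes of MHC class I and peptide loading, 1 was lower, the protein disulfide isomerase gene Pdia3 at -0.33 (-0.43 to -0.23), a call that held in only 4 of 14 alternative settings. Of 16 NK transcription factor genes, Lef1 alone was called, and of 9 immediate early genes 0 were called in either direction.

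**Figure D5:**
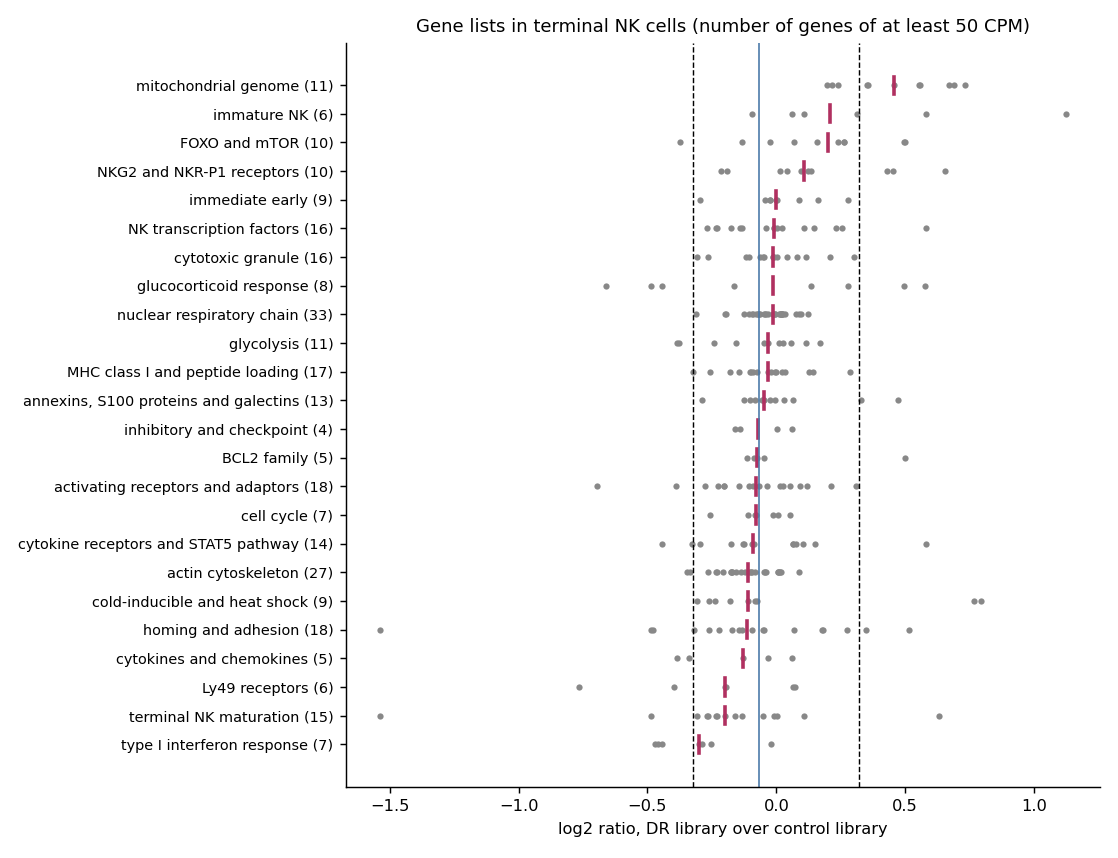
Log2 ratio of the DR over the control library in terminal NK cells (x axis) for the genes of each list with at least 4 genes of at least 50 CPM (rows, number of such genes in brackets). Points are genes, red bars list medians, the blue line the median of all genes at -0.07 and dashed lines 25% higher and 20% lower. The mitochondrial genome list has the highest median, 0.45, and the type I interferon list the lowest, -0.30.

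Transcripts of other lineages were measured in the same cells. The 13 B cell genes summed to 104 CPM in control and 216 CPM in DR members, with Cd79a and Ms4a1 at 0 by the rule, and Ighm, the IgM heavy chain gene, stood at 49.0 and 73.9 CPM. The 13 T cell genes summed to 652 and 529 CPM, with Cd3e at 0 by the rule, Cd8b1 and Cd6 also at 0 in the control and Cd5 and Cd6 in the DR library. Trbc1, a T cell receptor constant gene that NK cells can transcribe and that is near-identical to Trbc2, stood at 317 and 213 CPM. Myeloid genes summed to 172 and 201 CPM, with Csf1r at 0 by the rule and S100a8 and S100a9 at 0 in the control library. Sums were 28.8 and 48.2 CPM for type 1 innate lymphoid genes, 76.9 and 68.0 CPM for plasma cell genes, 34.0 and 46.2 CPM for platelet genes and 1.15 and 0.513 CPM for erythroid genes. Leaving out every member with a UMI of Cd3d, Cd3g, Igkc, Jchain, Cd74, Lyz2, S100a8 or S100a9 left 1453 control and 474 DR members, in which the 57 called genes of the naming rule kept their direction. The 57 include Cx3cr1, a gene of the rule, and Zfp950 and Ighm, which reached a mean of 50 CPM only through 1 library.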

How the data were processed

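Each library held 1 deposited matrix of UMI counts per gene and barcode. The authors made these counts with Cell Ranger, version 5.0.1 per the file headers and 2.1.1 per the submitters' processing notes, on the mouse build mm10. Filters used upstream are not given in the sources used here. Counts were summed over the cells of a gate and library and divided by the summed UMIs to give CPM. At 95%, intervals are exact Poisson for levels, exact Clopper-Pearson for shares and conditional binomial, also exact, for ratios. Member gates were also applied after thinning to 3000 UMIs, with seed 1. Coordinates come from an annotation of GRCm38 that matched 72 of 72 named identifiers. No unassigned samples or paired replicates exist. Doublets were left in: Scrublet's automatic threshold called 0 of 5487 control and 0 of 6120 DR cells and so did not work, and an alternative left out the 243 and 364 cells of highest score.

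The members and lists were chosen with earlier results of these data known. Named genes were the 12 largest ratios each way between the libraries, ranked by the interval end nearest 1, the 10 largest each way for every other comparison, ranked by the smaller of the libraries, up to 4 genes per list and the markers. Mitochondrial, ribosomal, immunoglobulin, T cell receptor, other-lineage and unnamed genes were kept out of the ranking. Further genes named where they make up a list's count, and Trbc1, Ighm and mt-Co2, were chosen after their values were seen. Some genes that the rule names are not reported here. Alternatives changed the scaling, the level and ratio limits, the weighting of cells, the gates and the cell filters. Python 3.11.15, numpy 2.4.6, scipy 1.17.1, pandas 2.3.3, scanpy 1.11.5 and matplotlib 3.10.9 were used.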

Additional observations from a re-analysis of the deposited data

How the results depend on the processing

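No paired analysis was possible because each group holds 1 library, and for the same reason no replicate could be left out. The 57 called genes of the naming rule had the same sign in every setting run, 14 for each gene but 13 for Cx3cr1, which is 0 by the rule in members with Klrg1 alone. Of these genes, 39 were past the limit in every setting run. Both counts include Cx3cr1, a gene of the rule, and Zfp950 and Ighm, which reached a mean of 50 CPM only through 1 library. For these the count is no support. A limit of 20 CPM leaves each ratio unchanged, so every call had to hold in that setting. The least stable calls were Pdia3 in 4 settings, Dock8 in 7, Stat3 and Ccl4 in 8, Anxa1 in 9, Arpc4, Hk1 and Trbc2 in 10 and Ccl3 in 12, and the other 9, Itga4, Cd247, Klrb1f, Ddit4, Sgk1, Anxa5, Irf9, Pfkp and Sesn3, missed the limit in 1. With median-of-ratios scaling 5.05% of genes were higher and 4.62% lower in the DR library, and 8.20% were higher and 10.1% lower in terminal than in Cd27-only cells. Scaling without ribosomal and mitochondrial genes gave 4.72% higher in the DR library and an immature list median of 0.36, and a limit of 20 CPM gave 4.77% and 0.36. At a ratio of 1.5, 0.565% were higher and 0.628% lower in the DR library, 0.197% and 0.230% against Itgam-only cells, and 4.59% and 2.36% against Cd27-only cells. Thinning gave terminal shares of 24.2% and 10.5%, 5.05% higher in the DR library, 0.591% lower against Itgam-only cells and 0.968% higher in Cx3cr1 members. Asking for 2 receptor UMIs gave shares of 29.9% and 9.16%, and also leaving cells with Cd3d or Cd3g transcripts out of the NK gate gave 38.4% in the control library. The median of the terminal maturation list, -0.20 over its 15 genes with the rule genes, was -0.093 with both kinds of member weighted equally. In settings chosen after seeing the data it was -0.11 in members with Cx3cr1, where 5.26% of genes were higher, and -0.075 in members with Klrg1 alone. Fewer cells or genes enter some of these settings, and the cause of each shift was not tested. Depth limits the gates, since members by 1 UMI are a larger part of the DR members.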
